A study of Rattus norvegicus with 6 samples.

Results

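The DNA replication machinery was taken as a list of 51 genes that license origins, unwind the template, copy both strands, supply deoxynucleotides and rebuild chromatin. The genes were listed by symbol and role, with no threshold on their values, and 49 of them were found among the 15388 genes counted in each library, while Rrm2 and Tipin were not matched by symbol. Poly(A)+ RNA of whole thyroid was sequenced from adult Sprague-Dawley rats, with 3 libraries from non-pregnant (NP) rats and 3 from rats on day 18 of pregnancy (LP), where the plug day was day 1. The labels name no engineered allele and no administered agent for either group, and both were handled as snap-frozen tissue. The question was how the transcripts of these genes differed between the pregnant and the non-pregnant thyroid.

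DNA replication starts where the origin recognition complex sits on chromatin and where Cdc6 and Cdt1 load the ring of MCM proteins onto DNA. Further factors then switch the ring into an active helicase, and polymerases, a sliding clamp, single-strand binding proteins and ligase complete the copy. Follicular cells of the adult thyroid divide rarely, and transcripts of many of these genes accumulate as cells approach S phase, in large part under E2F transcription factors.

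The libraries held 2752144 to 3449857 counted reads, so that 3 reads in a library lay between 0.870 and 1.09 counts per 1000000 reads (CPM). Replicates 2 and 3 of NP differed by no more than sampling noise (chi-square per degree of freedom 1.02, p = 0.111), and so did replicates 2 and 3 of LP (0.995, p = 0.667), whereas replicate 1 differed from both in each group (3.70 to 4.11). For this reason the pair entered each mean ± SD as a single value, so that n = 2 in each group, while the test used the 6 libraries as deposited. The common coefficient of variation between libraries, beyond counting noise, was 0.0645 in the edgeR fit used here. It was 0.0131 in the fit with the replicate number as a block. Whether the libraries came from separate animals or were repeat libraries was not tested. The p-values therefore measure only the spread between these samples, which may be technical. The defining genes of the thyroid follicular cell were abundant in every library, with a summed level of 230661 to 249117 CPM in NP and 240954 to 257514 CPM in LP, although 3 of the 9 were higher (Nkx2-1, Duox2 and Duoxa2) and 2 lower (Slc5a5 and Tshr). Markers of skeletal muscle differed far more, with 15.0 to 67.5 CPM in NP and 2674 to 2818 CPM in LP, and 7 of the 8 tested were higher in LP. The 4 airway markers found stood at 2.86 to 6.24 CPM in NP and 21.9 to 23.0 CPM in LP, with 3 of 3 tested higher. Lower in LP were 3 of 5 endothelial markers (479 to 500 CPM in NP, 405 to 430 CPM in LP) and 1 of 3 parathyroid markers (4458 to 4832 CPM against 3715 to 4031 CPM).

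Most of the replication genes had few reads per library in both groups, and those that differed were mostly higher in LP. The median member had a mean of 26.3 reads per library, 10 members had a mean under 10 reads and 15 a mean of at least 50. In edgeR's quasi-likelihood test with no filter on low counts, 10 of the 49 members (20.4%) were higher in LP at an adjusted p below 0.05, where 11.8% of all 15388 genes were. Only Orc2 was lower, 2.04% of the members against 8.85% of all genes. Past a fold change of 2 lay 6 members, all higher, which was 12.2% of the list against 4.4% of all genes. With the default filter 38 members were tested and 11 were left out, and 10 were again higher (26.3%, against 15.3% of the 11738 genes tested), 5 of them past 2-fold (background 4.9%), and 1 was lower (background 11.7%). The default filter can pass a gene on the reads of 1 group alone, as for Uhrf1 in LP. A filter blind to group, a mean of at least 10 reads, called the same 10 members higher. Between the fits with and without the default filter, 9 of the members higher in LP were shared. Rpa1 was called with that filter alone and Clspn without it alone. The members below are given from the test with the default filter, and those below it from the test without a filter. The median log2 fold change over the 49 members was 0.23, beside -0.00 over all genes. In 17 members (34.7%) every LP library lay above every NP library in CPM, against 18.5% of all genes, and in 3 (6.12%) every LP library lay below, against 15.9%. In whole tissue, a change in how many cells carry a transcript and a change in how much each cell holds cannot be told apart. With replicates 2 and 3 summed, Rpa1 was lost and the other 9 of the filtered test were called again (background 12.3%), beside Orc2 on the lower side (background 8.36%), and summed without the filter 10 were higher (background 10.2%). DESeq2 called 6 of the filtered members higher (background 10.4%) and none lower (background 5.99%).

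**Figure D1:**
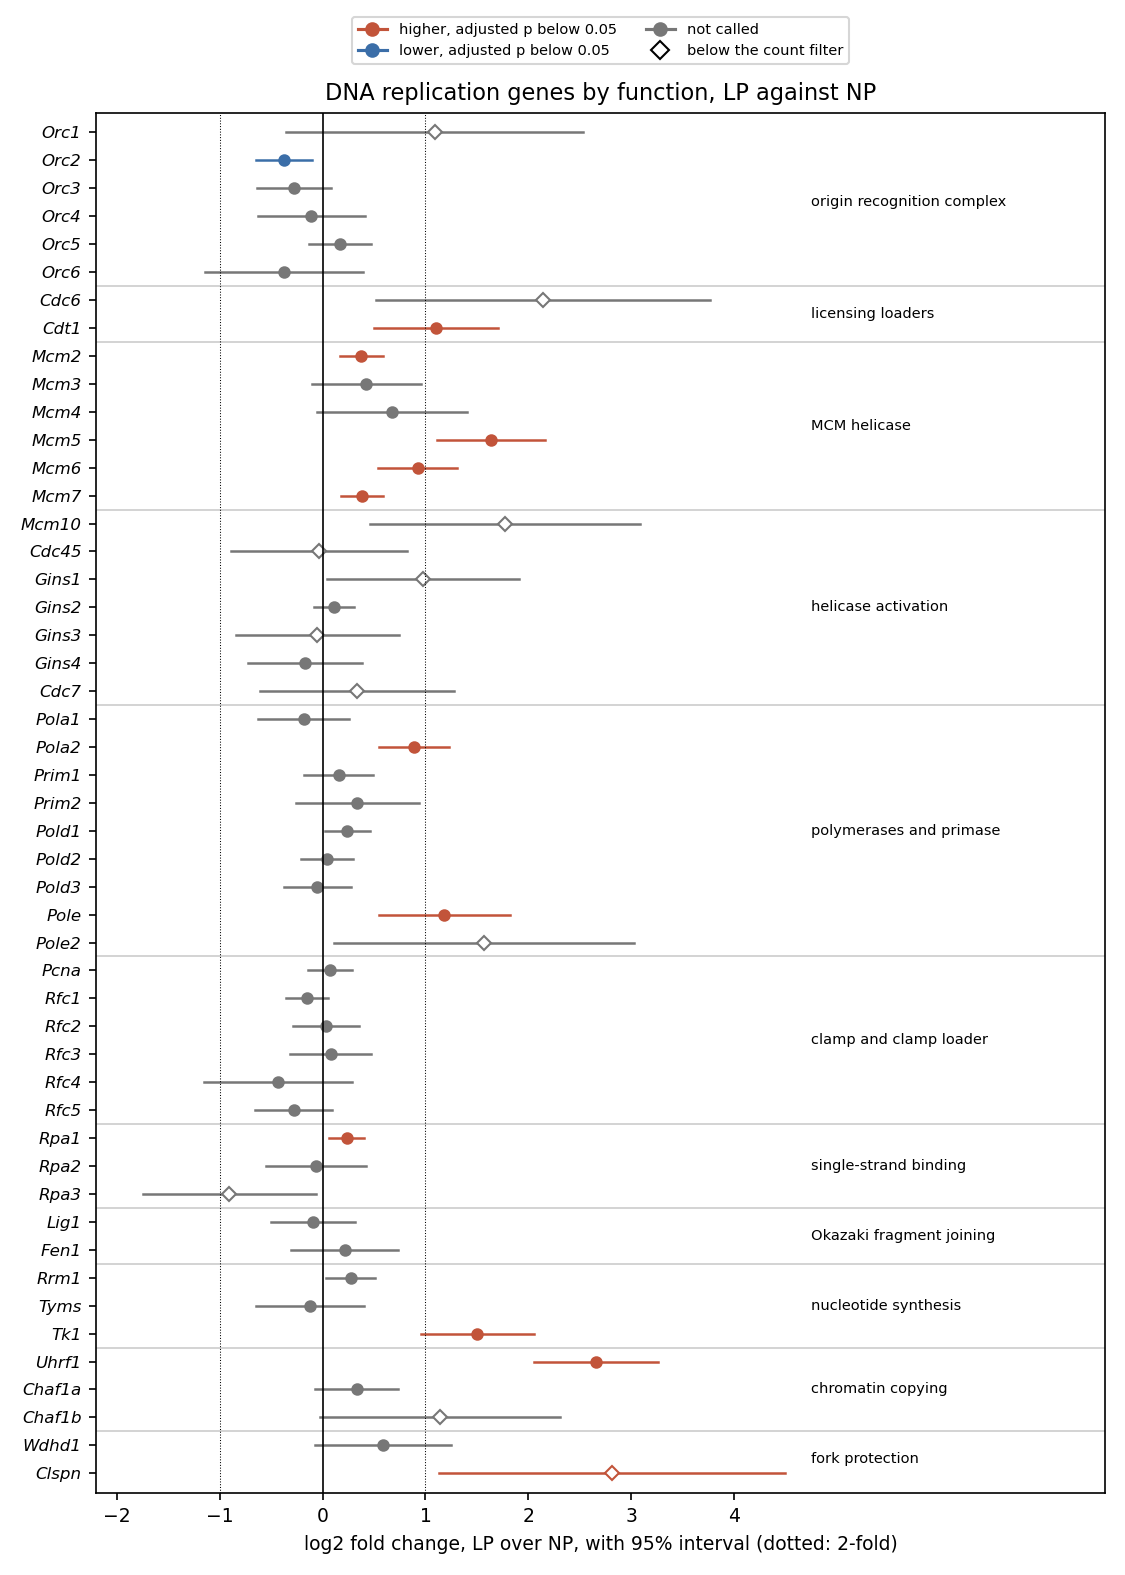
Log2 fold change (LP over NP) of the 49 members found, grouped by function, with bars for the 95% interval of the edgeR quasi-likelihood test, open diamonds for the members below the count filter and dotted lines at a 2-fold change. Of the members called, Clspn, Uhrf1, Mcm5 and Tk1 lie farthest to the right. Cdc6 and Mcm10, not called, lie at 2.14 and 1.78, while Pcna lies at 0.07 and Rfc4, of the clamp loader, at -0.43.

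As a share of the library, the machinery was a little larger in LP. The 49 members summed to 669, 678 and 698 CPM in NP replicates 1, 2 and 3 and to 745, 764 and 748 CPM in LP, on the scale of library totals. All 3 LP libraries lay above all 3 NP libraries, with means of 678 ± 14 and 750 ± 7.5 CPM (SD, n = 2) and a ratio of 1.11, which was not tested.

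Of the origin recognition complex genes, 1 of the 5 tested was lower in LP (all genes 11.7%), with no call for the other members. Orc2 (ENSRNOT00000051843), a core subunit of the complex, had 101, 102 and 108 NP reads and 91, 102 and 73 LP reads. Scaled to depth, the 3 LP libraries lay below the 3 NP libraries, at 35.3 ± 1.2 CPM in NP and 27.5 ± 2.2 CPM in LP (SD, n = 2). The log2 fold change was -0.37 ± 0.13 (SE), or 1.30-fold lower, at an adjusted p of 0.0367 by edgeR's quasi-likelihood test. That call was lost without any single NP library (adjusted p 0.0510 to 0.0854), without LP replicate 3, the library with 73 reads (0.189), and in DESeq2 (0.189). Orc3, another core subunit, also had all LP libraries below NP, with 40, 46 and 42 reads against 35, 39 and 43, but its log2 difference of -0.28 did not pass (adjusted p = 0.273), and it had the lowest adjusted p of the 5 members not called. Orc1, Orc4, Orc5 and Orc6 had log2 differences of 1.09, -0.11, 0.17 and -0.38, and none passed. Orc1, the subunit that completes the ring, was below the filter at 0, 5 and 2 NP reads and 6, 4 and 7 LP reads, and its 95% interval ran from -0.35 to 2.53 on the log2 scale.

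Both licensing loaders had all 3 LP libraries above all 3 NP libraries. Cdt1 (ENSRNOT00000018923), which brings the MCM ring to the origin, had 14, 15 and 9 NP reads and 28, 39 and 24 LP reads. Its level was 4.47 ± 0.76 CPM in NP and 9.14 ± 0.28 CPM in LP, and the log2 fold change was 1.10 ± 0.28 (SE), or 2.15-fold, at an adjusted p of 0.00735 in the edgeR test. The call was narrowly lost without LP replicate 2 (adjusted p = 0.0525). Cdc6, the ATPase that acts with Cdt1, was below the filter, with 4, 0 and 0 NP reads and 7, 6 and 8 LP reads. Its adjusted p of 0.0573 missed the threshold, with a fitted log2 difference of 2.14 ± 0.78 (SE).

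The MCM helicase was the group with most calls, with 4 of its 6 subunits higher in LP by edgeR (all genes 15.3%). Of these DESeq2 called 2, Mcm5 and Mcm6 (all genes 10.4%). Mcm5 (ENSRNOT00000084271) differed most, with 11, 20 and 19 NP reads and 72, 50 and 51 LP reads. The lowest LP library held more than double the reads of any NP library, and the means were 5.16 ± 1.7 and 19.0 ± 5.7 CPM. Its log2 fold change was 1.64 ± 0.25 (SE), or 3.11-fold, at an adjusted p of 6.62e-05 by edgeR. Mcm6 (ENSRNOT00000004969) had 21, 26 and 27 NP reads and 49, 57 and 50 LP reads. These were 8.10 ± 0.84 and 15.8 ± 0.15 CPM, a log2 fold change of 0.92 ± 0.18 or 1.90-fold, at an adjusted p of 0.000898. The Mcm6 groups were well apart in every library, although the difference stayed under 2-fold.

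Mcm2 and Mcm7 were the subunits with the most reads, and their differences were smaller. Mcm2 (ENSRNOT00000022231) had 101, 96 and 117 NP reads and 146, 150 and 156 LP reads, or 35.5 ± 0.83 and 46.0 ± 0.89 CPM. The log2 fold change was 0.38 ± 0.099 (SE), 1.30-fold, at an adjusted p of 0.00873 in edgeR, 0.0600 without NP replicate 2 and 0.0980 in DESeq2. Mcm7 (ENSRNOT00000001825) had 112, 123 and 105 NP reads and 146, 180 and 166 LP reads, or 38.7 ± 1.9 and 49.0 ± 3.3 CPM. Both subunits had every LP library above every NP library, and the log2 fold change of Mcm7 was also 0.38 (SE 0.097, adjusted p = 0.0069 in edgeR and 0.0759 in DESeq2). Mcm4 had 10, 6 and 7 NP reads and 11, 16 and 14 LP reads and did not pass (log2 difference 0.67, 95% interval -0.06 to 1.41, adjusted p = 0.173). Mcm3 had 13 reads in NP replicate 1 but 30 and 35 in the other NP libraries, against 36, 37 and 43 in LP. The Mcm3 groups overlapped in CPM, and its log2 difference of 0.42 had an interval from -0.11 to 0.95. Subunits of the one ring thus ranged from 0.38 to 1.64 on the log2 scale, and differences between subunits were not tested.

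**Figure D2:**
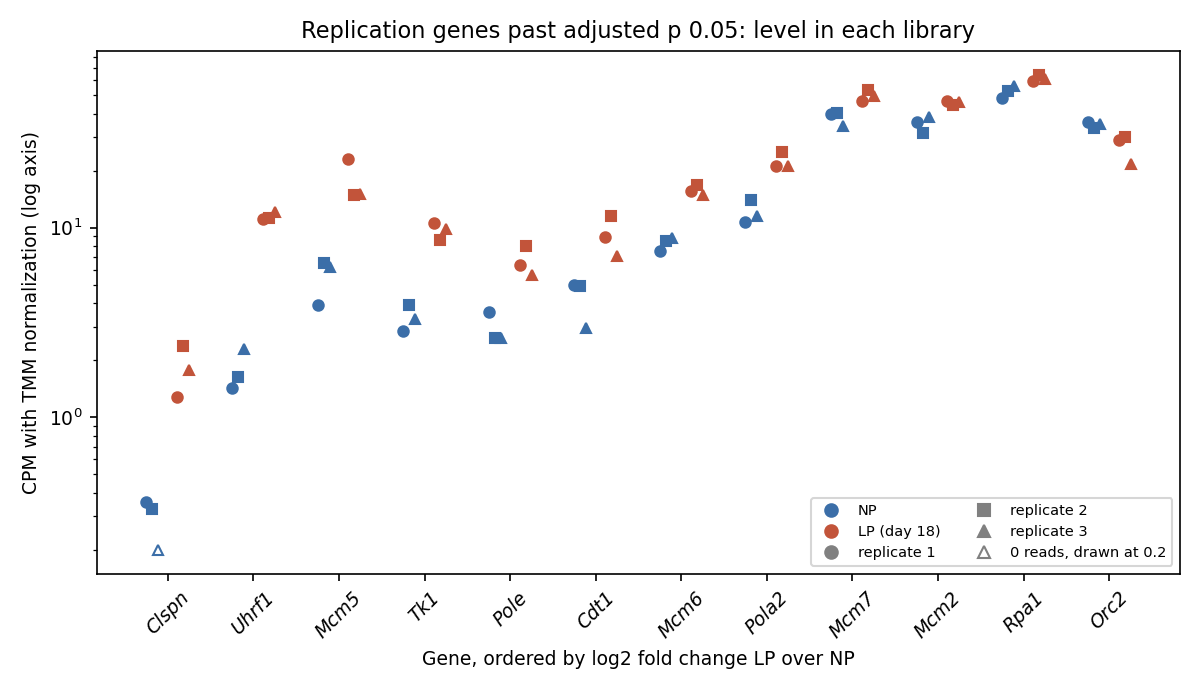
Level in CPM (TMM scaling, logarithmic axis) of the 12 members called, with 1 point for each of the 3 NP and 3 LP libraries and a value of 0 reads drawn at 0.2 CPM. For 11 members the LP points lie above the NP points, and for Orc2 they lie below.

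Promoter sequences were set beside these values because E2F sites are known from several replication genes, and several members passed the test in the same direction. The promoters, taken from RefSeq on the build GRCr8, run from 250 bases before the annotated start to 50 bases after it and were found for 44 of the 51 genes. They were searched for an E2F-type site, spelled TTTCCCGC, TTTCGCGC, TTTGCCGC or TTTGGCGC, or on the other strand GCGGGAAA, GCGCGAAA, GCGGCAAA or GCGCCAAA, with overlapping matches each counted. Of the 44 promoters 20 held such a site (45.5%), beside 2.14% of all 33469 promoters of that length and 3.6% of the promoters of 11102 genes in the count files. Shown are the 3 members of lowest adjusted p that hold a match, with the matched bases in capitals and the strand of the gene, 5′ to 3′. They are Mcm5 at chr19:13488563-13488862 (plus strand), Mcm6 at chr13:42404303-42404602 (minus strand) and Pole, the polymerase epsilon catalytic subunit, at chr12:52053613-52053912 (minus strand).
Mcm5: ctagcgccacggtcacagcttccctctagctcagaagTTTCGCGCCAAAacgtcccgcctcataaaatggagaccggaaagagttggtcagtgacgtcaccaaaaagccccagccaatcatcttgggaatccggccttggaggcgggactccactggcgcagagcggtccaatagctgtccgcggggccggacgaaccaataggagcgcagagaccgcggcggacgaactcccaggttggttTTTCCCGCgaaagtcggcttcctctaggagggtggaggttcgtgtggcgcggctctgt
Mcm6: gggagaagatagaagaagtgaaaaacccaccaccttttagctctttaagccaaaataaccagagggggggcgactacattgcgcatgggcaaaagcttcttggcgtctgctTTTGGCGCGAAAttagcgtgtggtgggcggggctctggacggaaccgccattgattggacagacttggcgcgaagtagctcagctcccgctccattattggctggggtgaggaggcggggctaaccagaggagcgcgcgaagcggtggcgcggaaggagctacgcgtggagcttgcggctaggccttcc
Pole: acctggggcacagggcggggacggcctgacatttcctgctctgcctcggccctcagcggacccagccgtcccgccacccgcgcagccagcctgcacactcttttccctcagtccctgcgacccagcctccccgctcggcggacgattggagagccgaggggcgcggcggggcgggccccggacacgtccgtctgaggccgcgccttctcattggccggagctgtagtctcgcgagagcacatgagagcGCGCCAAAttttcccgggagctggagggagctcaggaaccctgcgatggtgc
In Mcm5 the capitals mark TTTCGCGC at 213 to 206 bases before the start, which overlaps GCGCCAAA at 209 to 202, and TTTCCCGC in the last 8 bases before it. Mcm6 carried TTTGGCGC at 139 to 132 bases before the start, overlapping GCGCGAAA at 135 to 128, and in Pole GCGCCAAA began 2 bases before the start and ran across it.

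Members with and without a site were set side by side. Of the 19 members in the count files with a site, 7 were higher in LP (Clspn, Mcm5, Pole, Cdt1, Mcm6, Mcm7 and Mcm2) and their log2 fold changes ran from -0.28 to 2.81 with a median of 0.38. Of the 24 without one, 4 were higher (Uhrf1, Tk1, Pola2 and Rpa1), Orc2 was lower, and the range was -0.43 to 2.66 with a median of 0.23. These counts join both tests, since Clspn was called only without the filter and Rpa1 only with it. Of all genes, 15.3% were higher and 11.7% lower with the filter, and 11.8% and 8.85% without it. The ranges overlapped, the difference between the sets was not tested, and a match of letters is a description and not evidence of binding.

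**Figure D3:**
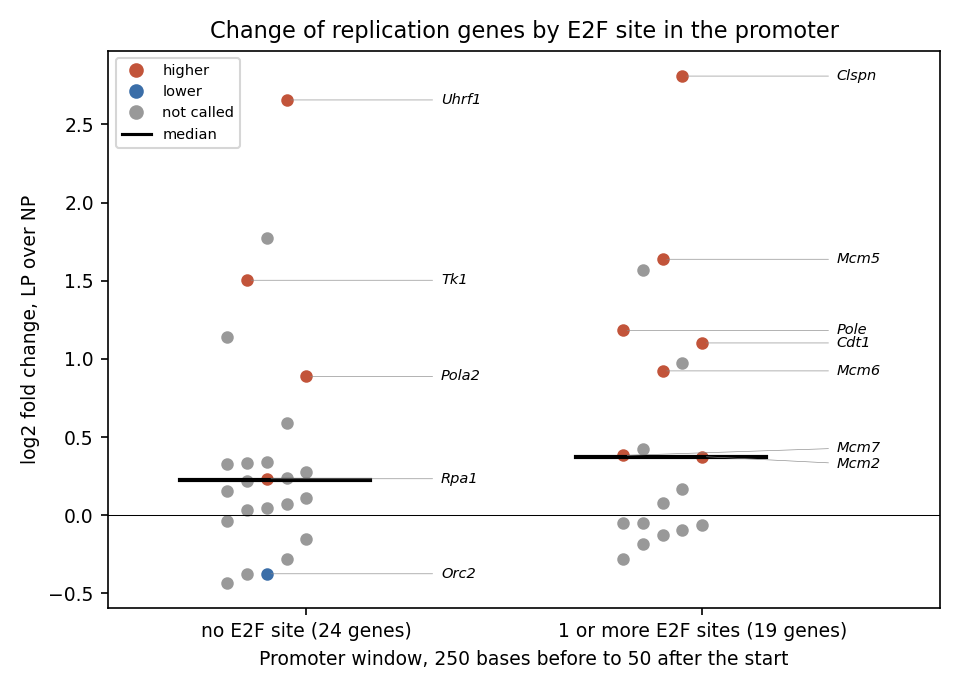
Log2 fold change (LP over NP) of the members without (24) and with (19) an E2F-type site in the promoter, with 1 point per gene and a black line at the median. Points of both sets span nearly the same range, and the medians lie at 0.23 and 0.38.

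Genes that turn the loaded ring into a moving helicase gave no call, and most had few reads. None of the 2 tested with the filter was called by edgeR's quasi-likelihood test, none had an unadjusted p below 0.05 and DESeq2 called none. Gins2, a subunit of the GINS complex and the member of the group with the most reads, had 135, 173 and 164 NP reads and 199, 176 and 190 LP reads. The groups overlapped, with means of 51.8 ± 4.9 and 58.9 ± 6.6 CPM and a log2 difference of 0.11 (95% interval -0.08 to 0.31, adjusted p = 0.426). Mcm10, which helps to start unwinding, was below the filter with 1, 2 and 2 NP reads and 9, 6 and 5 LP reads. Every LP library of Mcm10 lay above NP, and its adjusted p of 0.0510 in the edgeR test was just outside the threshold (log2 difference 1.78 ± 0.63, SE). Gins1 also had 3 higher LP libraries, with 4, 3 and 7 reads against 13, 9 and 9, at a log2 difference of 0.98 that did not pass (adjusted p = 0.143). Cdc45, Gins3, Gins4 and Cdc7 had log2 differences of -0.03, -0.05, -0.17 and 0.34 with overlapping groups.

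Among the polymerases and primase, 2 of the 8 members tested were higher in LP (all genes 15.3%). They were a regulatory subunit and a catalytic subunit of different enzymes, and DESeq2 called 1 of them, Pola2 (all genes 10.4%). Pola2 (ENSRNOT00000084800), the regulatory subunit of polymerase alpha, had 30, 43 and 35 NP reads and 66, 85 and 71 LP reads. This was 11.8 ± 1.5 CPM in NP and 22.1 ± 1.4 CPM in LP, and the log2 fold change was 0.89 ± 0.16 (SE), or 1.85-fold, at an adjusted p of 0.00046 in edgeR. Pola1, the catalytic subunit of the same enzyme, had 22, 29 and 29 NP reads and 25, 26 and 27 LP reads, with overlapping groups and a log2 difference of -0.18 (adjusted p = 0.600). Their intervals were 0.54 to 1.23 for Pola2 and -0.63 to 0.26 for Pola1, and the difference between these subunits was not tested. Pole (ENSRNOT00000067453), which copies the leading strand and whose promoter is shown above, had 10, 8 and 8 NP reads and 20, 27 and 19 LP reads. All LP libraries of Pole were above NP at 6.60 ± 0.31 against 3.10 ± 0.67 CPM, a log2 fold change of 1.18 ± 0.30 (SE), or 2.27-fold, with an adjusted p of 0.00681 in edgeR and 0.0708 in DESeq2. Pole2, its second subunit, had only 1, 1 and 2 NP reads and 4, 5 and 5 LP reads and was below the filter (adjusted p = 0.130).

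Polymerase delta, which copies the lagging strand, and primase, which lays down the starting RNA, gave no call. Pold1, the catalytic subunit, had 84, 94 and 89 NP reads and 116, 117 and 117 LP reads, and of the members not called in the group it had the lowest adjusted p (0.114). Its LP libraries lay above NP in CPM, at 35.9 ± 1.7 against 30.0 ± 0.015 CPM, and its log2 difference was 0.24 with an interval from 0.02 to 0.46. The log2 differences of Pold2 and Pold3 were 0.04 and -0.05, and those of Prim1 and Prim2 were 0.16 and 0.34, all with overlapping groups.

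The sliding clamp and its loader did not differ detectably. Among these 6 members edgeR's quasi-likelihood test called none, none had an unadjusted p below 0.05 and DESeq2 called none. Pcna, the clamp that holds the polymerase on DNA and a common marker of proliferating cells, had 108, 106 and 111 NP reads and 114, 125 and 140 LP reads. The groups overlapped at 37.1 ± 2.1 and 37.9 ± 2.0 CPM, and the 95% interval of the fold change ran from 0.906 to 1.22 (log2 difference 0.07 ± 0.10, SE, adjusted p = 0.679). Rfc1, the large subunit of the loader, had the most reads of the group, with 136, 129 and 158 in NP and 130, 145 and 148 in LP (47.8 ± 1.1 and 42.5 ± 1.4 CPM). Its log2 difference of -0.15 had an interval from -0.35 to 0.05. The small loader subunits Rfc2, Rfc3, Rfc4 and Rfc5 gave log2 differences of 0.03, 0.08, -0.43 and -0.28, and the lowest adjusted p of the group was that of Rfc5 (0.276).

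Of the single-strand binding proteins, Rpa1 alone passed, and by little (all genes 15.3% higher). Rpa1 (ENSRNOT00000090262), the large subunit of replication protein A, had 136, 161 and 170 NP reads and 186, 217 and 206 LP reads. Its LP libraries were above NP at 61.1 ± 2.3 against 51.4 ± 4.0 CPM, a log2 fold change of 0.23 ± 0.080 (SE), or 1.18-fold, with an adjusted p of 0.0403. The call was lost with replicates 2 and 3 summed (adjusted p = 0.0898), and without any 1 library other than NP replicate 3 (0.0582 to 0.170). Rpa2 had a log2 difference of -0.06 (adjusted p = 0.879). Rpa3, the small subunit, was below the filter with 9, 9 and 21 NP reads and 6, 8 and 9 LP reads. In CPM all its LP libraries lay below NP, with a log2 difference of -0.90 that did not pass (adjusted p = 0.127).

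Genes that join Okazaki fragments gave no call in the edgeR test, with neither at an unadjusted p below 0.05 and neither called by DESeq2. Lig1, the replicative DNA ligase, had 29, 44 and 33 NP reads and 36, 37 and 37 LP reads, at 11.5 ± 1.6 and 11.2 ± 0.37 CPM. The Lig1 groups overlapped, with an interval from -0.50 to 0.31 on the log2 scale. Fen1, the flap nuclease, had 15, 20 and 20 NP reads and 20, 22 and 29 LP reads, with a log2 difference of 0.22 (adjusted p = 0.584).

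In nucleotide synthesis 1 of the 3 members found was higher (all genes 15.3%). Tk1 (ENSRNOT00000071420), the thymidine salvage kinase of dividing cells, had 8, 12 and 10 NP reads and 33, 29 and 33 LP reads. No LP library came near the NP range, and the means were 3.23 ± 0.53 and 9.87 ± 0.95 CPM. The log2 fold change was 1.50 ± 0.26 (SE), or 2.83-fold, at an adjusted p of 0.000262 by edgeR. Tyms, which makes thymidylate by the other route, had 18, 19 and 23 NP reads and 22, 22 and 17 LP reads, with overlapping groups (log2 difference -0.12, interval -0.65 to 0.40). Rrm1, the large subunit of ribonucleotide reductase, had 110, 118 and 102 NP reads and 121, 170 and 152 LP reads. Its groups overlapped, and its log2 difference of 0.27 ± 0.11 (SE) did not pass (adjusted p = 0.0823) but did in the fit blocked on replicate number (0.0320, where 17.5% of all genes were higher), though not when replicates 2 and 3 were summed under the same block.

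The clearest difference of the list was in chromatin copying. Uhrf1 (ENSRNOT00000083848), which recognises newly copied, hemimethylated DNA and recruits the maintenance methyltransferase, had 4, 5 and 7 NP reads and 35, 38 and 41 LP reads. The 3 LP libraries were close together and far above NP, at 11.4 ± 0.38 against 1.70 ± 0.38 CPM. The log2 fold change was 2.66 ± 0.28 (SE), or 6.30-fold with a 95% interval of 4.15 to 9.57, at an adjusted p of 1.3e-06 in edgeR. Chaf1a and Chaf1b, subunits of the factor that places histones behind the fork, did not pass. Chaf1a had 27, 27 and 37 NP reads and 41, 44 and 42 LP reads, with all LP libraries above NP in CPM (log2 difference 0.33, adjusted p = 0.226). Chaf1b was below the filter with 3, 6 and 1 reads against 9, 5 and 11, and its groups overlapped (log2 difference 1.14, adjusted p = 0.174).

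Fork protection was represented by Clspn and Wdhd1. Clspn (ENSRNOT00000015227), the adaptor that links stalled forks to the checkpoint kinase, had 1, 1 and 0 NP reads and 4, 8 and 6 LP reads. Its LP libraries all lay above NP, and the ratio of the 18 LP reads to the 2 NP reads was 8.11 for equal depth, with a 95% counting interval of 1.94 to 72.1. It was below the filter and was higher in the edgeR test without it (adjusted p = 0.0157, and 0.0313 with replicates 2 and 3 summed). Wdhd1, which couples the helicase to polymerase alpha, had 12, 11 and 20 NP reads and 16, 22 and 34 LP reads and was not called (log2 difference 0.59, interval -0.07 to 1.25, adjusted p = 0.190).

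The ratio of LP to NP was also taken within the replicate strata, that is, in replicate 1 and in replicates 2 and 3 summed. For the 11 members called with the filter the groups did not overlap, which fixes the sign in both strata, so that only the sizes are compared. Uhrf1 gave log2 ratios of 2.97 in replicate 1 and 2.57 in replicates 2 and 3, Tk1 gave 1.88 and 1.35, and Pola2 gave 0.98 and 0.86. Mcm2 gave 0.37 and 0.38, and Orc2 gave -0.31 and -0.41. The strata were farther apart for Mcm5, at 2.55 and 1.23, where NP replicate 1 had the fewest and LP replicate 1 the most reads. Without the filter the strata of Mcm10 were 3.01 and 1.31, and of the members not called Mcm3 gave 1.31 and 0.15 and Mcm4 gave -0.02 and 1.06.

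**Figure D4:**
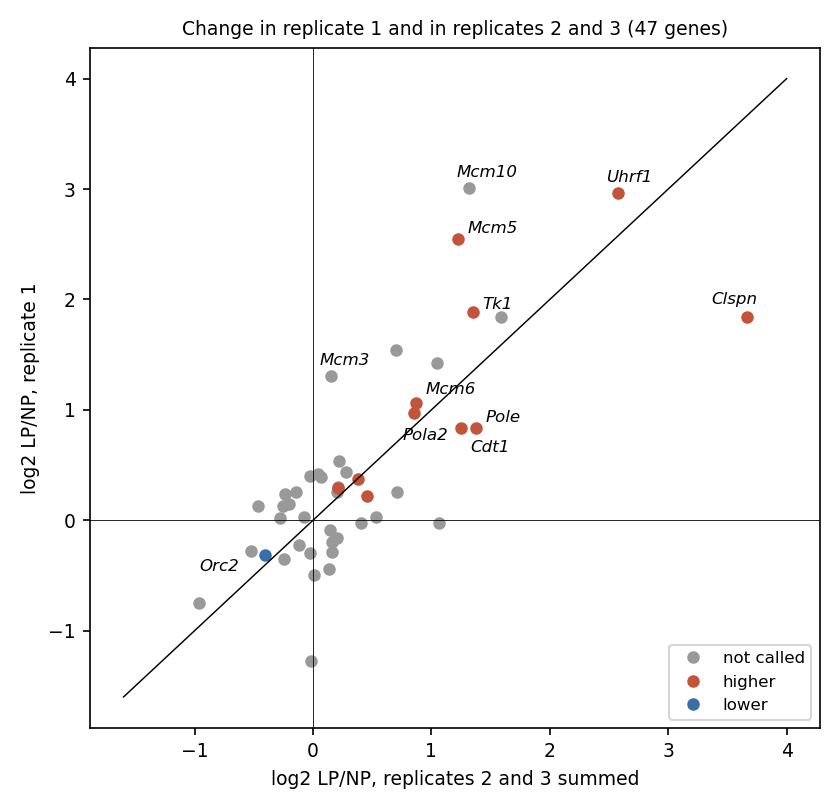
Log2 ratio of LP over NP in replicate 1 (vertical) against that in replicates 2 and 3 summed (horizontal) for 47 members, leaving out Orc1 and Cdc6, which had a count of 0 in a stratum. The members called higher lie above 0 on both axes, with Uhrf1 at 2.57 and 2.97, and Orc2 lies below 0 on both.

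Other genes of replication and S phase, a list of 49 with 47 found, included calls in both directions. Without the filter 5 of the 47 were higher and 4 lower (all genes 11.8% and 8.85%), with a median log2 fold change of 0.16. With the filter 2 of 33 were higher and 4 lower (all genes 15.3% and 11.7%), with a median of 0.03. The shares called without the filter were thus near those of all genes. By other measures the list was close to the replication members. In 15 of the 47 every LP library lay above every NP library and in 5 below (all genes 18.5% and 15.9%), beside 17 and 3 of the 49 members. Log2 fold changes above 0 were found for 32 of the 47, beside 33 of the 49. Higher were E2f1, a transcription factor of S phase entry, with 4, 8 and 10 NP reads and 15, 20 and 23 LP reads (log2 fold change 1.24 ± 0.34, SE, adjusted p = 0.0110 in edgeR), and Topbp1, a scaffold of origin firing (0.59 ± 0.18, adjusted p = 0.0244). Below the filter Asf1b, a histone chaperone, had 1, 3 and 0 NP reads and 14, 11 and 13 LP reads (adjusted p = 0.000821). Exo1, a nuclease of repair, had 0 reads in all NP libraries and 3, 4 and 2 in LP, a ratio with a lower 95% counting bound of 1.78, and E2f8, a repressor of the E2F family, had 17 LP reads against 3 (ratio 5.11, 95% counting interval 1.48 to 27.2). With replicates 2 and 3 summed and no filter, 2 of the list were higher, Asf1b among them (adjusted p = 0.00107), while Exo1 (0.0502) and E2f8 (0.0687) missed the threshold. In the summed test with the filter, Topbp1 (0.0733) and, of the lower genes below, Timeless (0.0654) missed it as well. Lower were Chtf8, a part of an alternative clamp loader (log2 fold change -0.28, adjusted p = 0.00318), Ssrp1, a subunit of the histone chaperone FACT (-0.22, 0.00595), Pole3, a histone-fold subunit of polymerase epsilon (-0.45, 0.0107), and, in the test on 6 libraries, Timeless, the partner of Tipin at the fork (-0.25, 0.0327). Pole3 had 99, 105 and 96 NP reads and 75, 74 and 95 LP reads, so that the polymerase epsilon genes Pole and Pole3 were on opposite sides.

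Genes of G2 and M phase, given as the group nearest in function, had a larger median, and the difference between the lists was not tested. Of 32 listed and 31 found, 16 were higher without the filter and 1 lower (all genes 11.8% and 8.85%), with a median log2 fold change of 1.33 beside 0.23 for the replication machinery. Top2a, the topoisomerase of chromosome segregation, had 12, 18 and 14 NP reads and 69, 92 and 93 LP reads (log2 fold change 2.37 ± 0.20, SE, adjusted p = 4.98e-08 in edgeR). Prc1 and Cenpf, a spindle bundling protein and a kinetochore protein, had log2 fold changes of 2.03 and 2.10. Tpx2, a spindle assembly factor, was the one lower (log2 fold change -0.39).

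**Figure D5:**
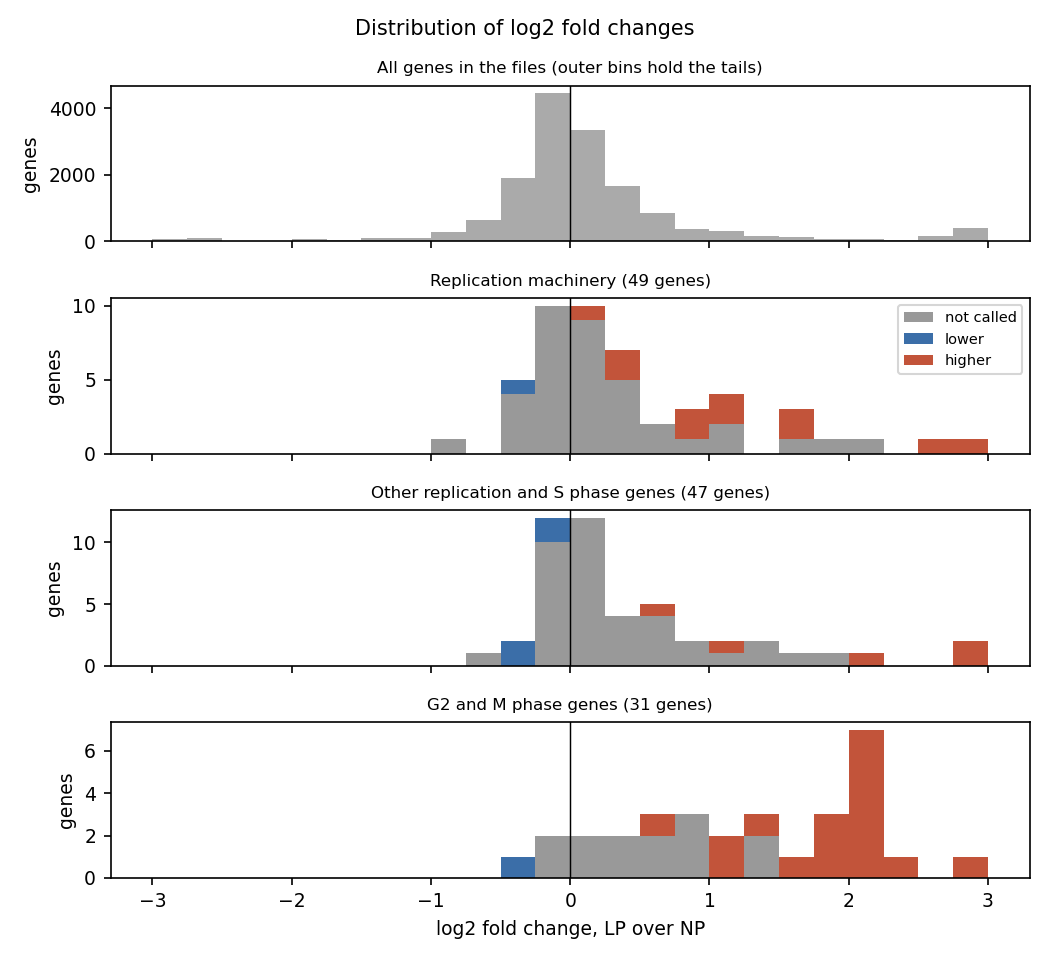
Histograms of the log2 fold change (LP over NP) of all genes, the 49 replication members, the 47 other replication and S phase genes and the 31 G2 and M phase genes, with the outer bins holding the tails. Of the members 33 lie above 0, with a median of 0.23, and the G2 and M genes lie farther right, with a median of 1.33.

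Markers of other cell types were examined beside these differences. Of T cell and thymocyte markers 7 of 11 were found, summing to 18.4 to 21.4 CPM in NP and 16.0 to 22.4 CPM in LP. Most of these reads were of Cd4, with 35 to 37 in NP libraries and 40 to 43 in LP libraries. Cd3d, Cd3g, Cd8a and Cd8b had at most 3 reads in every library. The 3 B cell markers found summed to 0.328 to 0.715 CPM in NP and 0.319 to 1.19 CPM in LP. The 7 macrophage markers summed to 142 to 160 CPM in NP and 157 to 182 CPM in LP, and edgeR called none of them, with 2 at an unadjusted p below 0.05 and none called by DESeq2. Fibroblast markers ran from 1171 to 2093 CPM in NP and from 1426 to 2358 CPM in LP, with 1 of 5 tested lower, and adipocyte markers from 55.5 to 64.7 and from 59.3 to 71.9 CPM. The C cell markers stood at 13697 to 14661 CPM in NP and 12110 to 12859 CPM in LP, with 1 of 4 higher (Scg2) and 1 lower (Calca). The muscle and airway markers moved with the group, as given above, and their part in the differences of the replication genes was not tested. With Tg and the muscle markers left out, the summed share of the replication machinery was again 1.11 times as large in LP as in NP. The muscle markers made up at most 2818 CPM of an LP library, and Tg differed little between the groups (log2 difference 0.06). Leaving them out could therefore hardly move the ratio, and it does not test what other tissue contributed.

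Some members share their locus with another gene, which bears on how far their reads can be assigned. In the GRCr8 annotation 5 of the 51 overlap a gene that was itself counted, among them Orc3 with Rars2, Orc4 with Acvr2a and Mbd5, Gins2 with Gse1 and Pole2 with Klhdc1. None of these was called. In all 19 members overlap some annotated gene, which includes the called Uhrf1 (with Arrdc5), Clspn (C5h1orf216), Pole (LOC120096104), Mcm6, Mcm7 and Rpa1, whose partners were not matched among the counted genes. The strand setting of the counting is not given in the sources used here, and the reads were counted on Ensembl models after mapping to rn5. Whether reads of an overlapping gene entered these counts, or were lost from them, could therefore not be checked.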

How the data were processed

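Polyadenylated RNA of rat thyroid was sequenced in 6 libraries (3 NP, 3 LP). The authors mapped reads with TopHat 1.4.0 to the rn5 build and counted them with HTSeq on Ensembl gene models, and the values deposited were raw read counts per gene, with no normalization and no unnamed genes. Groups came from the labels. The study used DESeq. Here LP was compared with NP on all 6 libraries in R 4.3.3 by edgeR 4.0.16 (quasi-likelihood test, TMM normalization, default count filter, Benjamini-Hochberg adjustment over 11738 genes, or 15388 with no filter), with DESeq2 1.42.0 and limma 3.58.1 installed for alternatives and dependencies. A call meant an adjusted p below 0.05. Standard errors were log2 fold changes over the root of the F statistic. CPM as mean ± SD used TMM-scaled totals, and summed CPM used library totals. The precision of the weakly counted genes was limited by 2752144 to 3449857 reads per library. Intervals and floors from counts cover counting error only. Gene lengths were not used, so levels were not compared between genes.

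Same-numbered NP and LP libraries deviated together (correlations across genes 0.483, 0.216 and 0.183, each above 0.1). Replicates 2 and 3 also deviated together across numbers (0.209 and 0.207), so only replicate 1 stood apart, and the labels name no shared litter or day. By the limit of 0.1, the fit with the replicate number as a block is given where it changed a call of a member, and its counts for the other lists are given with the alternatives. The members and lists were chosen with earlier results of these data known. Reads per library were given for every member called and, in groups with no call, for the member with the most reads. For members not called, values were given for the lowest adjusted p of each group. Other members named were chosen after their values were seen. Promoters, gene overlaps and sites came from RefSeq (GRCr8) by symbol, with no coordinates of rn5 used. No promoter was at hand for Orc1, Orc4, Cdc6, Mcm4, Gins4, Rpa3 and Rrm2. Alternatives were other filters, scalings, thresholds, tests, single libraries left out, replicates 2 and 3 summed, and the block. The tests without the filter on summed replicates and with the block were added after the data were seen.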

Additional observations from a re-analysis of the deposited data

How the results depend on the processing

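Among the 15 members recomputed under the alternatives, no called member changed sign. The count of members higher in LP was 10 of the 38 tested with the default filter, and 6 with the DESeq2 test. It was 4 of the 15 members with a mean of at least 50 reads, and 8 to 10 when single libraries were left out. The count lower, 1, was 0 with DESeq2, 0 at an adjusted p below 0.01 and 0 to 1 without single libraries. Members past a 2-fold change numbered 5, none with at least 50 reads (0), and 4 to 6 without single libraries. With the replicate block 11 members were higher, Rrm1 being added and no other call of a member changed, but with replicates 2 and 3 summed and blocked Rrm1 was not called and 10 were higher. Uhrf1, Mcm5, Mcm6, Tk1 and Pola2 kept their call in every setting that tested them, while DESeq2 lost Mcm2 (adjusted p = 0.0980), Mcm7 (0.0759), Pole (0.0708), Rpa1 (0.288) and Orc2 (0.189), and Rpa1 was lost in 11 of 18 settings. The cause was not tested.

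Of the other replication and S phase genes, 2 were higher with the default filter, 5 with no filter, 4 with replicates 2 and 3 summed and the replicate block, 4 with the block and no filter, 0 with at least 50 reads, 0 with DESeq2, 0 at an adjusted p below 0.01 and 0 to 4 without single libraries (4 without NP replicate 1, 0 without LP replicate 3). Those lower were 4, then 2 with DESeq2, 2 at 0.01 and 2 to 5 without single libraries (2 without LP replicate 2). Past 2-fold the count was 1, then 2 with replicates 2 and 3 summed (with or without the block or the filter), 4 with no filter, 2 with the block and no filter, 0 with at least 50 reads, 0 with DESeq2, 0 at 0.01 and 0 to 2 without single libraries. Genes of G2 and M phase with at least 50 reads numbered 1 higher and 1 past 2-fold. With the default filter 13 and 12 of the 21 tested were (all genes 15.3% and 4.9%). The limit of 50 reads leaves out most genes of that list, so the counts are not out of the same number of genes. With the default filter and the replicate block, 3 of the other replication and S phase genes were higher (Rrm2b added) and 5 lower (Supt16h added). Under the same block 14 genes of G2 and M phase were higher (Cdca8 added). The summed share of the members was 1.16 times as large in LP with TMM scaling, against 1.11, and 1.09 to 1.12 without single libraries. Library totals alone moved the median log2 fold change of all genes by -0.07. For the 11 members below the filter few reads limited what could be detected.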
